A study of Mus musculus with 3 samples.

Results

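The cells described here are colon organoid cells with the highest joint level of Edn1, Il1rn, F3, Msln, Areg and Stox2, and they are called members below. A cell was kept if it had 5000 or more unique molecular identifiers (UMIs, each a counted transcript molecule), 400 or more detected genes and no more than 15% mitochondrial UMIs. Each was given a score, the mean over the 6 genes of ln(1 + UMIs per 10000), and the top 8% of cells within each library were taken. This gave 85 of 1058 cells in the untreated library, 73 of 917 after 24 h of IFN-γ and 235 of 2934 after 48 h, together 393 of 4909 filtered cells among 60546 deposited barcodes. The libraries were made by droplet sc-RNAseq (3' v3 chemistry, 10x Genomics) from organoids grown from the colon of young adult wild-type mice. All were kept in full medium (FM), which holds the stem cell niche factors R-spondin 1, Wnt and Noggin together with EGF, CHIR-99021 and the TGF-β receptor inhibitor A83-01, so that every group, the untreated one included, grew with an added EGF receptor ligand. The organoids were dissociated and dead cells were sorted out with DAPI. There was 1 library per condition, so that a condition and its library cannot be told apart and no test across samples exists. The number of mice or organoid lines behind a library was not given in the sources used here.

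The score genes encode secreted and surface proteins of different kinds. Edn1 encodes endothelin-1, a vasoconstrictor peptide, Il1rn the secreted antagonist of the IL-1 receptor, and F3 tissue factor, the membrane protein that starts blood coagulation. Msln encodes mesothelin, a surface glycoprotein of mesothelium, Areg amphiregulin, a ligand of the EGF receptor, and Stox2 a storkhead-box protein. In an injured colon, epithelial cells at a wound flatten, migrate over new matrix and take up integrins and the urokinase receptor, while regenerating crypts show fetal-like genes such as Ly6a and Anxa1. In the intact crypt, stem and progenitor cells divide at the base, and colonocytes acquire a brush border on the way up and Krt20 near the surface. The question was which of these states the members resembled in genes outside the score, and whether that held in each library.

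Outside the score, members held more of the genes of wound-edge epithelium than the other cells in all 3 libraries. Cldn4, Plaur and Anxa1 stood 2-fold or more above the other cells in each, and were also higher than in non-member cells ranked as early colonocytes. Stem and cell cycle genes stood lower in members, arrest genes of p53 higher, and brush border genes moderately higher, most so after IFN-γ. Cdkn1a, one of the arrest genes, was at like levels in members and in those non-member early colonocytes. In the untreated library the brush border rise did not hold against cells of like depth or cells low in cycle genes. Krt20, and surface colonocyte genes as a sum, stood below their level in non-member cells ranked as early colonocytes. IFN-γ genes were as high in treated members as in the other treated cells.

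Membership was set by a cut along a continuous score. The lowest member scored 0.796 without IFN-γ, 0.683 after 24 h and 0.620 after 48 h, and the highest other cell 0.794, 0.683 and 0.620. Within 0.05 of the cut lay 18, 10 and 67 members and 22, 14 and 91 other cells. The last untreated cell taken in held 10 Edn1, 1 F3 and 1 Msln UMIs among 6157, and the first one left out 4 Il1rn, 6 F3, 1 Msln and 14 Areg UMIs among 21669. Because the share was set at 8% in every library, the number of members says nothing about the abundance of such cells. When every cell was thinned at random to 5000 UMIs, the cut of the untreated library was reached by 86 of its own cells (8.13%, 95% CI 6.55 to 9.94%), by 49 cells at 24 h (5.34%, 95% CI 3.98 to 7.0%) and by 102 cells at 48 h (3.48%, 95% CI 2.84 to 4.2%). These intervals cover the sampling of cells in 1 library each and do not speak to the conditions.

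**Figure D1:**
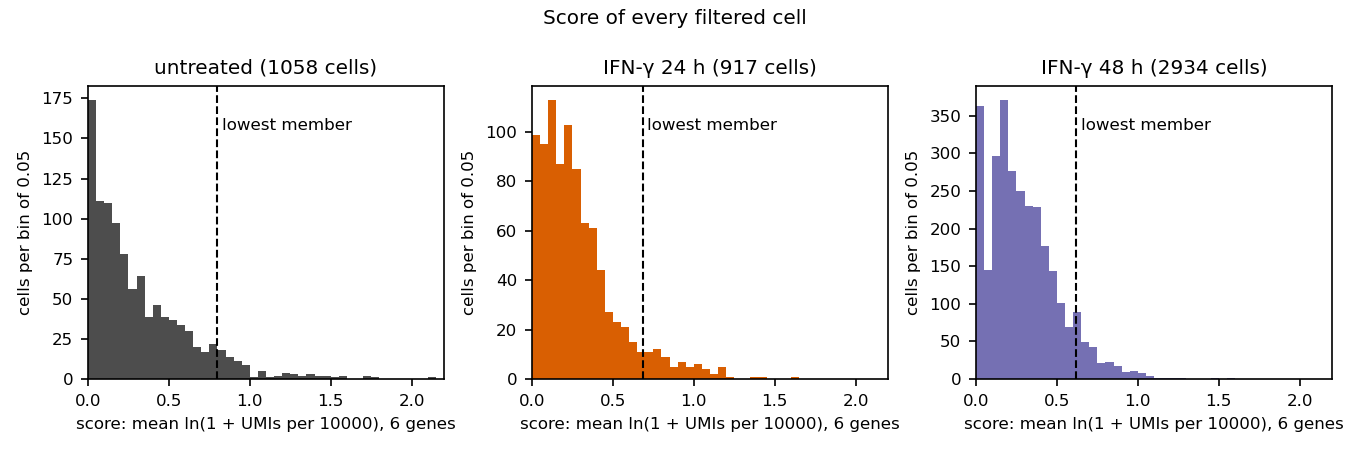
Number of filtered cells (y axis, bins of 0.05) by score (x axis, mean of ln(1 + UMIs per 10000) over the 6 genes) in each library, with a dashed line at the lowest member. Cells lie on both sides of the line with no gap in each panel, and the upper tail reaches 2.15 without IFN-γ, 1.60 after 24 h and 1.58 after 48 h.

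Members were shallower than the other cells in the untreated and 24 h libraries, and alike in depth at 48 h. Median UMIs per cell were 22521 in untreated members against 34936 in the other untreated cells, 27309 against 71116 at 24 h and 10789 against 10767 at 48 h. Members summed to 3425700, 3080284 and 3611904 UMIs, and the other cells to 46376235, 67997533 and 43631596. The median mitochondrial share was 6.70%, 2.94% and 6.57% in members and 4.72%, 2.08% and 6.11% in the other cells. The untreated and 48 h libraries shared 4 cell barcodes among filtered cells, and each of the other pairs of libraries shared 1, none of them a member. Levels below are counts per 1000000 UMIs summed over a group of cells (CPM), and ratios of members to the other filtered cells of the same library are log2 ratios of CPM with exact conditional binomial 95% intervals. These intervals cover counting error only, and CPM of 3' tags is compared within a gene and not between genes.

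Edn1 was lower and Areg higher in treated than in untreated members. The Edn1 level in members was 917 CPM without IFN-γ, 168 after 24 h and 215 after 48 h, against 109, 7.69 and 19.6 CPM in the other cells. Areg stood the other way, with 650.1, 2084 and 1226 CPM in members and 92.6, 262 and 324 CPM in the other cells. Edn1 was the leading term of the score in 51.8% of untreated members and Areg in 35.3%, with ties counted for each gene, while Areg led in 91.8% of members at 24 h and 86.4% at 48 h. The treated members are therefore better described as Areg-high cells. UMIs of Edn1 were found in 52.1% of members at 24 h and 66.8% at 48 h, and of Il1rn in 64.4% and 34.0%. Il1rn stood at 247, 80.2 and 45.7 CPM in members and 32.8, 4.09 and 4.47 CPM in the other cells. F3 was at 220.1, 226 and 143 CPM in members, with no more than 30.9 CPM in the other cells of any library. Msln reached 181, 91.2 and 45.4 CPM, and in the untreated library 28.8% of its member UMIs came from 1 cell. Stox2, found in few cells, was at 35.3, 18.8 and 21.9 CPM in members and 7.74, 3.19 and 6.19 CPM in the other cells. All of these values were used by the choice of cells and are descriptions. On GRCm38 the genes span chr13:42301476-42307990 for Edn1 (ENSMUSG00000021367), chr2:24336853-24351494 for Il1rn (ENSMUSG00000026981), chr3:121723537-121735048 for F3 (ENSMUSG00000028128), chr17:25748613-25754378 for Msln (ENSMUSG00000063011), chr5:91139599-91148432 for Areg (ENSMUSG00000029378) and chr8:47180048-47446362 for Stox2 (ENSMUSG00000038143), so that each lies on a chromosome of its own.

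Deposited barcodes under 2000 UMIs, too small to be kept as cells, also held Areg, Edn1 and F3. They had 94.7, 232 and 238 CPM of Areg in the untreated, 24 h and 48 h libraries, close to its level in the other cells. Edn1 was at 49.4, 4.45 and 7.32 CPM in those barcodes and F3 at 38.0, 35.8 and 16.9 CPM, below their level in members by a wide margin. In the untreated and 24 h libraries F3 was higher in those barcodes than in the other filtered cells.

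When members were chosen again by 5 of the genes, the one left out was still higher in the chosen cells in every library. This is a description and no support for the group, since the 6 genes had been proposed together from these data. For Edn1 the log2 ratio was then 2.21 without IFN-γ, 3.77 after 24 h and 1.80 after 48 h, for Il1rn 2.13, 3.99 and 2.56, and for F3 2.08, 2.88 and 1.81. For Msln it was 2.55, 2.51 and 2.37, for Areg 2.18, 2.32 and 1.17, and for Stox2 1.31, 1.30 and 0.79. Stox2 at 48 h was the one value under 2-fold. Few members held UMIs of all 6 genes, 7 without IFN-γ, 7 after 24 h and 4 after 48 h, and 21, 37 and 168 members held 3 or fewer.

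The promoters of the score genes and of the genes that differed most were read for letters bound by factors that act in wounded epithelium. The 4 windows below, from RefSeq on GRCm38.p6, run 5′ to 3′ on the gene's strand from 250 bases before the start to 50 bases after it, and capitals mark matches on either strand to TGANTCA, the AP-1 core, or GGAATG, the TEAD core. Edn1 is shown for its TEAD match at −207, at chr13:42301226-42301525 on the plus strand, Il1rn for an AP-1 match at −141 of the first of its 3 start sites, at chr2:24336610-24336909 on the plus strand, and F3 for a pair of AP-1 matches at −146 and −135, at chr3:121723287-121723586 on the plus strand. Cldn4, the junction gene described below, has AP-1 matches at −240 and −158, at chr5:134946885-134947184 on the minus strand.
Edn1: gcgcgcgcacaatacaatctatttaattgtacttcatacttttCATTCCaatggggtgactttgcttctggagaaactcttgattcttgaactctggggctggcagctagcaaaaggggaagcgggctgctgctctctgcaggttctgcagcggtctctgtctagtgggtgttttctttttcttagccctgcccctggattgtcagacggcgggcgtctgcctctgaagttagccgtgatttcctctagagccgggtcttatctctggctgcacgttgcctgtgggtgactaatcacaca
Il1rn: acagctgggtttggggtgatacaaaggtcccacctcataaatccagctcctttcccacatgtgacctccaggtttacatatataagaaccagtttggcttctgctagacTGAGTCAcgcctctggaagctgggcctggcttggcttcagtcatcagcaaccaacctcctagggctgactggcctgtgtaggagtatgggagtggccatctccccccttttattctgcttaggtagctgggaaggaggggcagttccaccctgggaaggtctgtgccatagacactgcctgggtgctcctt
F3: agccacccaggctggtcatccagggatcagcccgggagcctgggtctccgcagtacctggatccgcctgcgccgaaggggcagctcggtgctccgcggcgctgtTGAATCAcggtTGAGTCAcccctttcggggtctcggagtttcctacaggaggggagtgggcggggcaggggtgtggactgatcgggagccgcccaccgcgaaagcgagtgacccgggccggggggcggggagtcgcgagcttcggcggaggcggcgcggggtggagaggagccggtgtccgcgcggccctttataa
Cldn4: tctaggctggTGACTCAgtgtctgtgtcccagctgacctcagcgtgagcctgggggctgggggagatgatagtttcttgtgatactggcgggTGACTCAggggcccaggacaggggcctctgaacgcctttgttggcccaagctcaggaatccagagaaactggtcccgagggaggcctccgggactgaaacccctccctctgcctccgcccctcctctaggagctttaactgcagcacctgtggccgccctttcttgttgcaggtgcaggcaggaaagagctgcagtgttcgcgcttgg
The AP-1 letters occur in 7.81% and the TEAD letters in 14.7% of the 32851 promoter windows searched. Promoters were at hand for 5 of the 6 score genes, of which 2 held AP-1 and 2 TEAD letters. A gene was counted if any of its start sites held a match, while the percentages are shares of single windows, so they are not like for like. Of the 10 genes highest in members, named next, 8 had a promoter window, 3 with AP-1 and 0 with TEAD letters, and of the 10 lowest 6 had one, 0 with either. These are matches of letters, and no binding was measured.

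Outside the score, genes higher in members outnumbered lower ones, by little in the untreated library. Of 6938 untreated genes whose mean of members and other cells was 20 CPM or more, 311 were at least 2-fold higher in untreated members (4.48%) and 266 lower (3.83%). At 24 h 440 of 6325 were higher (6.96%) and 243 lower (3.84%), and at 48 h 126 of 6714 (1.88%) and 31 (0.462%). A gene under 20 CPM in the other cells could enter only through members, and the reverse, which fixed its direction in these counts and those below. The median log2 ratio over all genes tested lay near 0, at −0.09, −0.07 and −0.04. Scaling by TMM factors lowered all log2 ratios by 0.10 at 24 h and turned the split there into 373 higher and 345 lower. Of 5856 genes at 20 CPM or more in all 3 libraries, 4277 had the same direction in each, 75 were at least 2-fold higher in all 3 and 14 lower in all 3.

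The 10 genes highest in members by the mean of the 3 ratios were Sprr1a, Atp12a, Rhoc, Mxd1, Samd5, Slc10a2, Cldn4, Nupr1, Gsn and Pmaip1. Cldn4, a claudin of epithelial tight junctions, was at 194 CPM in untreated members, 263 at 24 h and 143 at 48 h, against 41.9, 33.3 and 40.1 CPM in the other cells. Its log2 ratio was 2.21 (95% CI 2.09 to 2.34) without IFN-γ, 2.98 (95% CI 2.87 to 3.10) after 24 h and 1.84 (95% CI 1.70 to 1.98) after 48 h, and no member held more than 9% of its UMIs in any library. Nupr1, a stress-induced nuclear protein, was at 874, 1353 and 658 CPM in members and 231, 153 and 205 CPM in the other cells, with log2 ratios of 1.92, 3.14 and 1.68. Both stood higher in each library, and the richest member held at most 21.3% of the Nupr1 UMIs, at 24 h.

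Others of these genes rested on fewer cells. Sprr1a, a cornified envelope precursor of squamous epithelium that also marks injured epithelium, was at 40.9, 296 and 50.9 CPM in members and 8.82, 4.24 and 5.13 CPM in the other cells, the widest gap among the 10 at 24 h. Its UMIs came from 15, 28 and 37 members, and without the richest cell its log2 ratios were 1.66, 5.66 and 2.88 in place of 2.21, 6.13 and 3.31. Atp12a, a proton and potassium pump of the distal colon, was at 60.4, 88.6 and 49.0 CPM in members and 8.75, 3.21 and 5.84 CPM in the other cells, from only 8 members at 24 h. Rhoc, a small GTPase of cell migration, stood at 74.7, 158 and 87.8 CPM against 21.7, 10.6 and 16.8 CPM, and Mxd1, an antagonist of Myc found in cells that leave the cycle, at 75.9, 113 and 51.5 against 21.1, 8.59 and 9.26 CPM. These 3 genes were each highest at 24 h in members and lowest then in the other cells. In the untreated library Mxd1 and Rhoc were under 2-fold against depth-matched cells, at log2 ratios of 0.66 and 0.99, and against quieter cells, at 0.78 and 0.84, both kinds of cells being described below. The untreated ratio of Sprr1a was 3.73 against depth-matched and 1.0 against quieter cells, and that of Atp12a 3.41 and 1.80, so their size depended on the comparator. Slc10a2, the apical bile acid transporter, was at 148, 55.2 and 39.9 CPM in members and 38.4, 9.94 and 6.30 CPM in the other cells. Gsn, which severs actin filaments, and Pmaip1, a p53-induced death gene, had log2 ratios of 2.05, 2.49 and 2.02 and of 2.11, 2.92 and 1.25, and Samd5 of 2.32, 2.43 and 2.38.

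The 10 lowest genes were Chgb, Hist1h1a, Myb, Ascl2, Pclaf, Hist1h1b, Lgr5, Aldh1b1, Plk1 and Hist1h2ap. Ascl2, a transcription factor of intestinal stem cells, was at 12.3, 11.4 and 12.2 CPM in members and 35.7, 45.4 and 36.0 CPM in the other cells. Lgr5, the R-spondin receptor that marks stem cells, was at 74.1, 11.7 and 38.8 CPM in members and 157, 57.2 and 94 CPM in the other cells, with log2 ratios of −1.08 (95% CI −1.27 to −0.90) without IFN-γ, −2.29 (95% CI −2.81 to −1.82) after 24 h and −1.28 (95% CI −1.53 to −1.04) after 48 h. Myb, a factor of crypt progenitors, was at 18.1, 15.3 and 23.5 against 74.0, 63.0 and 59.8 CPM. All 3 stood lower in members in each library, by 2-fold or more, but Lgr5 in the untreated library had −0.76 against quieter cells. Pclaf, Plk1 and the histone genes belong to DNA replication and mitosis, and their ratios lay between −2.67 and −1.0. Against quieter cells, which were chosen by low cycle genes, Hist1h2ap had −0.15 and Hist1h1b −0.27 in the untreated library, and Plk1 −0.16 at 24 h and 0.09 at 48 h. At 48 h none of these 5 genes was 2-fold lower against either quieter or depth-matched cells. Chgb, a granule protein of enteroendocrine cells, was at 5.25, 1.95 and 2.49 against 124, 77.2 and 53.5 CPM, but it depends on where a few cells fall, since at 48 h its log2 ratio was 2.27 when the top 12% of cells were taken in place of −4.42.

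**Figure D2:**
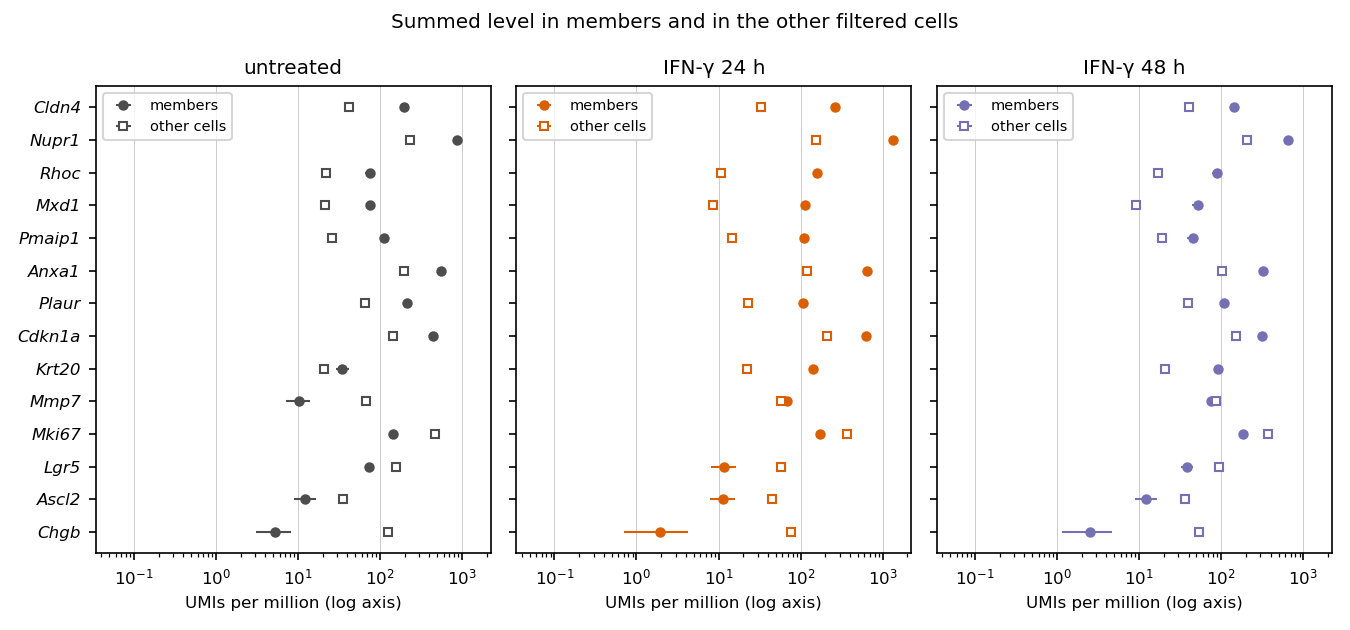
Level in CPM (log axis) of 14 genes outside the score, summed over members (filled circles) and over the other filtered cells (open squares) of each library, with exact Poisson 95% intervals for counting error. Cldn4, Nupr1, Anxa1 and Plaur stand to the right in members in all 3 panels and Mki67, Lgr5 and Ascl2 to the left, while Mmp7 stands well to the left in untreated members and close to the other cells in the treated libraries.

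Genes of the wound edge and of matrix adhesion were higher in members in all 3 libraries. Of 15 on the list, 9, 9 and 8 reached 20 CPM, of which 6, 7 and 5 were at least 2-fold higher and 1, 0 and 0 lower, with a median log2 ratio of 1.71, 2.21 and 1.16. Some passed that minimum only through members, such as Lamb3 at 24 h and 48 h and Itgb6 at 24 h. Mmp7 in the untreated library passed only through the other cells. Summed over all 15, with no minimum, the level was 1024, 865 and 743 CPM in members and 445, 234 and 365 CPM in the other cells. Plaur, the urokinase receptor, was at 214 CPM in untreated members, 106 at 24 h and 107 at 48 h, against 65.4, 22.9 and 39.4 CPM in the other cells. Its log2 ratio was 1.71 (95% CI 1.59 to 1.83) without IFN-γ, 2.21 (95% CI 2.04 to 2.39) after 24 h and 1.44 (95% CI 1.28 to 1.60) after 48 h. Lamb3, a laminin chain of the epithelial basement membrane, was at 76.5, 36.0 and 31.6 CPM in members and 23.1, 8.57 and 15.3 CPM in the other cells, with log2 ratios of 1.73, 2.07 and 1.04. Itgb6, the epithelial integrin that activates TGF-β, was at 96.3, 110.1 and 109.9 CPM in members and 35.7, 19.1 and 34.7 CPM in the other cells. Emp1, a membrane protein of stressed epithelium, had log2 ratios of 1.88 in the untreated library and 3.22 at 24 h and was just under 20 CPM at 48 h, with 33.7% of its member UMIs at 24 h in 1 cell. Against depth-matched cells, described below, the Emp1 ratio was 1.34 in the untreated library and 2.06 at 24 h. Plaur was thus higher in members of each library, Itgb6 in the untreated and 48 h libraries and Lamb3 in the untreated one. The minimum fixed the direction of Lamb3 at 24 h and 48 h and of Itgb6 at 24 h, so those values are descriptions. Mmp7, matrilysin, stood otherwise, at 10.2 CPM in untreated members and 66.6 CPM in the other untreated cells, and at 67.5 and 76.1 CPM in treated members and 58.1 and 86.6 CPM in the other treated cells. Cell by cell, the summed list lay above the median of the other cells in 91.8%, 97.3% and 88.1% of members, so the difference was spread over most of them.

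The fetal-like regenerative genes were also higher, but not evenly. Of 12 on the list 6, 7 and 7 reached 20 CPM, 4 in each library were at least 2-fold higher and none was lower, with a median log2 ratio of 1.36, 1.36 and 1.08. Cell by cell, the summed list lay above the median of the other cells in 80%, 61.6% and 70.6% of members. At 24 h the median was 5822 CPM in members and 4791 CPM in the other cells, so part of the members carried that difference. Anxa1, the annexin that marks regenerating colon epithelium, was at 546 CPM in untreated members, 639 at 24 h and 325 at 48 h, against 196, 121 and 102 CPM in the other cells. Its log2 ratio was 1.48 (95% CI 1.41 to 1.55) without IFN-γ, 2.40 (95% CI 2.33 to 2.47) after 24 h and 1.67 (95% CI 1.58 to 1.77) after 48 h. S100a6, a calcium-binding protein, had log2 ratios of 1.48, 2.02 and 1.29, Krt7, a keratin of simple epithelium, of 1.42, 1.52 and 1.10, and Anxa3 of 1.29, 1.36 and 1.08. Ly6a, the marker most used for this state, was at 1503, 4836 and 4626 CPM in members and 861, 3396 and 3752 CPM in the other cells, with log2 ratios of only 0.80, 0.51 and 0.30. It was thus abundant in members and other cells alike, most so after IFN-γ. Clu, which marks revival stem cells, was low throughout, at 32.4, 15.3 and 15.2 CPM in members and 6.77, 2.76 and 1.93 CPM in the other cells.

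Targets of YAP and TEAD were higher in members as a sum, though few reached the minimum. Of 12 genes 4, 3 and 3 reached 20 CPM, of which 3, 1 and 0 were at least 2-fold higher. Summed over the list the level was 354 CPM in untreated members, 213 at 24 h and 237 at 48 h, against 145, 98.0 and 161 CPM in the other cells. Ccn1, a matrix protein, had a log2 ratio of 1.28 in the untreated library and was under 20 CPM in the treated ones. Ankrd1 was found in only 7, 3 and 6 members, with 76.5% and 87.3% of its UMIs in 1 cell of the untreated and of the 24 h library.

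Other ligands of the EGF receptor went with Areg. Of the 11 ligands and receptors 6, 5 and 4 reached 20 CPM, all above 0 on the log2 scale, and 3, 4 and 1 were at least 2-fold higher. Among them Ereg at 24 h and 48 h passed that minimum only through members, which fixed its direction. Summed over all 11, with no minimum, the level was 666, 396 and 398 CPM in members and 330, 159 and 226 CPM in the other cells. Hbegf, a membrane-bound ligand, was at 326, 159 and 115 CPM in members and 146, 49.7 and 66.9 CPM in the other cells. Ereg, epiregulin, was at 25.1, 40.9 and 52.9 CPM in members and 3.43, 9.53 and 10.9 CPM in the other cells, with 43.0% of its untreated member UMIs in 1 cell. Egfr itself was at 137, 90.3 and 129 CPM in members and 69.6, 44.4 and 77.5 CPM in the other cells, and its log2 ratios of 0.98, 1.02 and 0.74 lay near or under 2-fold. Against depth-matched cells, described below, the Egfr ratios were only 0.67, 0.11 and 0.32. The feedback genes of ERK signalling had median log2 ratios of 1.0 in the untreated library and 1.20 at 24 h. At 48 h only 4 of the 13 reached 20 CPM and the median was 0.51. Ier3, an early response gene, had log2 ratios of 1.19, 1.97 and 1.25, while Dusp6, the phosphatase of ERK, was at 27.1, 36.4 and 20.5 CPM in members and 10.7, 8.84 and 7.66 CPM in the other cells, under a mean of 20 CPM in the untreated and 48 h libraries, from 32, 35 and 52 members.

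Stress and arrest genes were higher, most clearly those of p53. Of the 11 genes of p53 and arrest 10 reached 20 CPM in each library, all were above 0, and 8, 6 and 3 were at least 2-fold higher, with a median of 1.49, 1.35 and 0.88. Cdkn1a, the cyclin kinase inhibitor p21, was at 441 CPM in untreated members, 617 at 24 h and 316 at 48 h, against 145, 209 and 150.1 CPM in the other cells. Its log2 ratio was 1.61 (95% CI 1.53 to 1.69) without IFN-γ, 1.56 (95% CI 1.49 to 1.63) after 24 h and 1.07 (95% CI 0.98 to 1.16) after 48 h. Trp53inp1, a p53 cofactor, had log2 ratios of 2.08, 2.18 and 1.51, Plk2 of 1.92, 2.41 and 1.37 and Gdf15, a stress cytokine, of 2.21, 2.14 and 0.88. Immediate early genes, which respond within minutes to growth factors and to dissociation, had medians of 0.67, 1.29 and 0.77. Klf6, a zinc finger factor, had 1.55, 2.01 and 1.16 and Atf3, a stress factor, 1.34, 1.69 and 1.15, while Dusp1, a phosphatase of MAP kinases, stood highest of the list in the untreated and 24 h libraries, at 2.08 and 2.77, and was under 20 CPM at 48 h. Genes of hypoxia were at least 2-fold higher in 9 of 11 cases at 24 h, in 1 of 10 in the untreated library and in 0 of 7 at 48 h. Among these Ndrg1 was at 195, 318 and 39.9 CPM in members and 55.9, 30.1 and 24.8 CPM in the other cells. Targets of NF-κB had medians of 0.43, 0.77 and 0.40. BMP genes had medians of 0.05, −0.16 and −0.37, the last over 4 genes, of which 1 was above 0 and 3 below.

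The partners of the score genes were mostly low. Of the endothelin system Ece1, the enzyme that makes mature endothelin, was at 20.7, 19.2 and 18.8 CPM in members and 21.6, 13.1 and 19.9 CPM in the other cells, and the receptor Ednra was at 0.584 CPM in untreated members and 0 in treated ones, with Ednrb at 0 in all. Il1r1, the receptor that Il1rn blocks, was at 4.09, 0.649 and 1.11 CPM in members and 4.18, 0.574 and 0.55 CPM in the other cells, and Il1b was at 0 in members. Members thus made little message for the receptors of these 2 secreted proteins. In the coagulation list 3 of 13 genes reached 20 CPM, Plaur, which the wound edge list also holds, F2rl1, a protease-activated receptor, at 49.9, 33.8 and 32.1 CPM in members and 29.8, 16.6 and 20.8 CPM in the other cells, and Anxa2. Anxa2, a plasminogen co-receptor, had log2 ratios of 1.05, 1.59 and 1.02.

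Stem and cell cycle genes were lower in members. Stem genes had median log2 ratios of −1.16, −0.85 and −0.83, with 6 of 10, 4 of 8 and 3 of 9 at least 2-fold lower and none higher. All 12 genes of G2/M were below 0 in each library, with 12, 6 and 3 at least 2-fold lower and medians of −1.84, −0.98 and −0.89, and all 11 measured genes of S phase were below 0, with medians of −0.93, −1.30 and −0.67. Mki67, which marks cycling cells, was at 145, 174 and 186 CPM in members and 463, 365 and 376 CPM in the other cells. The median member had 402, 880.3 and 1128 CPM of G2/M genes and the upper quartile lay at 1076, 2078 and 2322 CPM. Some members were thus well inside the range of cycling cells, but few ranked in the top 8% of their library for these genes, 1 of 85, 2 of 73 and 3 of 235.

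The difference from the other cells was set beside quieter and depth-matched cells, a comparison added after the first values had been seen. Against other cells below the median of the cycle genes, the G2/M medians were −0.10, −0.02 and 0.07, which the choice of these cells by S phase and G2/M genes largely sets. The S phase medians were then −0.36, −1.30 and −0.44 and the stem medians −0.76, −0.57 and −0.61. Wound edge genes still had medians of 1.56, 2.18 and 1.03, regenerative genes of 1.27, 1.38 and 0.99, and p53 genes of 1.32, 1.19 and 0.73. Against other cells with UMI totals between the quartiles of the members, the regenerative medians were 1.54, 1.53 and 1.20, the p53 medians 1.54, 1.42 and 1.06 and the wound edge medians 1.34, 1.74 and 1.05. Against the same cells the G2/M medians were −1.40, −0.63 and −0.64. The wound edge, regenerative and p53 medians thus stayed above 0 and the S phase and stem medians below 0 in each library against quieter cells.

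**Figure D3:**
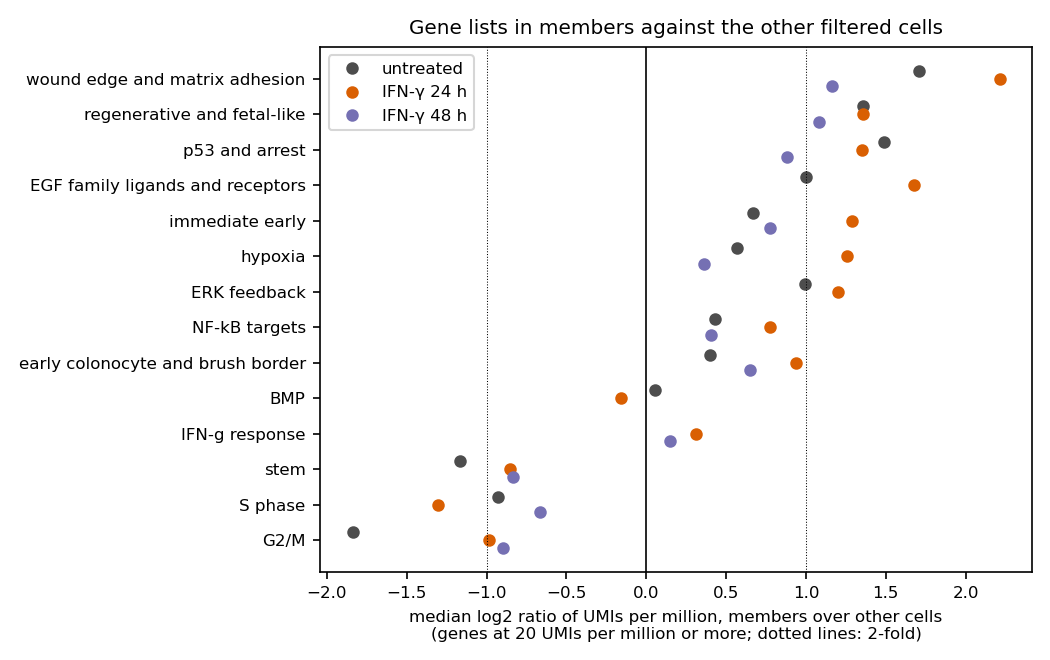
Median log2 ratio of CPM, members over other cells, for 14 gene lists (x axis, genes at 20 CPM or more, lists with at least 5 of them, dotted lines at 2-fold), coloured by library. The wound edge, regenerative and p53 lists lie to the right of 0 in all 3 libraries at 0.88 or more, and the stem, S phase and G2/M lists to the left at −0.67 or less.

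Brush border genes of early colonocytes were moderately higher. All 13 measured genes of the 14 were above 0 in each library, 3, 6 and 4 of them at least 2-fold, with medians of 0.40, 0.94 and 0.65. Krt19, a keratin of crypt and surface epithelium, was at 4714, 3311 and 1980.4 CPM in members and 1781, 884 and 723 CPM in the other cells. Cdhr2, a cadherin of the brush border, had log2 ratios of 1.41, 1.44 and 1.44, and its partner Cdhr5 of 1.08, 1.64 and 1.09. In the untreated library both were under 2-fold against depth-matched cells, at 0.76 and 0.57, and against quieter cells, at 0.82 and 0.46. At 48 h Cdhr5 was at 0.97 and 0.67 against these kinds of cells. Lypd8, which keeps bacteria off the colon surface, had log2 ratios of 0.27, 1.44 and 1.14, while Hnf4a, the factor of enterocyte identity, stood at 167, 99.7 and 95 CPM in members and 154, 78.1 and 85.9 CPM in the other cells. The untreated median did not hold against quieter cells, where it was 0.09, or against depth-matched cells, where it was 0.12. In the same order it was 0.73 and 0.89 at 24 h and 0.39 and 0.48 at 48 h.

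Genes of the mature surface rested on fewer members. Of 12 on the list 9, 4 and 4 reached 20 CPM, with 1, 4 and 3 at least 2-fold higher and 1, 0 and 0 lower. In the untreated library the median was 0.72 against all other cells but −0.51 against depth-matched and −0.50 against quieter cells, so its sign depended on the comparator. Krt20, the keratin of differentiated surface colonocytes, was at 34.7, 140.2 and 91.4 CPM in members and 20.7, 22.5 and 20.7 CPM in the other cells, from 16, 20 and 23 members. Without the richest cell its log2 ratio was −0.18 in the untreated library in place of 0.75, and 2.18 at 24 h in place of 2.64. Against depth-matched cells Krt20 had −0.74, 0.96 and 1.33, and against quieter cells −0.50, 1.76 and 1.07, so that its direction in the untreated library turned with the comparator. Mall, a raft protein, had log2 ratios of 1.70 in the untreated library and 2.17 at 24 h, and was under 20 CPM at 48 h. Car1, a carbonic anhydrase, had 68.7% of its member UMIs at 24 h in 1 cell, without which its log2 ratio was 0.28 in place of 1.93.

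Members and colonocytes ranked by score overlapped in part. Of the members, 16 of 85 (18.8%, exact 95% CI 11.2 to 28.8%), 25 of 73 (34.2%, 23.5 to 46.3%) and 56 of 235 (23.8%, 18.5 to 29.8%) were also in the top 8% of their library by early colonocyte genes. By surface colonocyte genes it was 11 (12.9%), 12 (16.4%) and 32 (13.6%), and by stem genes 3 (3.53%), 2 (2.74%) and 8 (3.40%). The class holds 8% of each library, so the early colonocyte share lay above and the stem share below that size in all 3 libraries, although the interval of the stem share reached 8% in the untreated and 24 h libraries.

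The cells in the top 8% for early colonocyte genes that were not members, 69, 48 and 179 of them, gave a direct comparison. Plaur stood at 30.9, 33.5 and 42.3 CPM in these cells, against 214, 106 and 107 CPM in members. Cldn4 was at 49.8, 58.7 and 62.9 CPM against 194, 263 and 143 CPM, and Anxa1 at 177, 172 and 167 CPM against 546, 639 and 325 CPM. The whole wound edge list summed to 504, 356 and 556 CPM against 1024, 865 and 743 CPM. Plaur and Cldn4 are part of that sum and made up most of its gap at 48 h. The YAP and TEAD list summed to 72.3, 88.0 and 121 CPM against 354, 213 and 237 CPM. Plaur, Cldn4, Anxa1 and the sums of both lists were therefore higher in members than in these non-member colonocytes of the same library. The 16, 25 and 56 cells that were also members had been taken out of the colonocytes. Cdkn1a stood at like levels in both, at 456, 619 and 337 CPM in the colonocytes and 441, 617 and 316 CPM in members, as did Slc10a2, at 134, 65.5 and 42.6 CPM against 148, 55.2 and 39.9 CPM. Surface colonocyte genes went the other way, with a summed 14791, 1402 and 888 CPM in the colonocytes and 2825, 657 and 409 CPM in members. Non-member cells ranked as stem cells held more of the YAP list than the colonocytes did, 247, 161 and 230.0 CPM, which at 48 h was close to the level in members.

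Markers of other cell types were low in members, and those of colon epithelium, such as Krt19, Lgals4 and Hnf4a, were present in every library. The mesothelial list, of interest because Msln is a mesothelial gene, summed to 3.50, 0.325 and 0.277 CPM in members and 2.87, 0.618 and 0.298 CPM in the other cells, and Upk3b, Wt1, Lrrn4 and Gpm6a were at 0 in members of all 3 libraries. Fibroblast genes summed to 1.17, 0.325 and 0.831 CPM in members and 1.32, 0.544 and 0.986 CPM in the other cells, and endothelial genes, with Egfl7 the most abundant, to 10.2, 8.12 and 14.7 CPM against 12.9, 12.7 and 12.8 CPM. Immune genes, with Cd68 the most abundant, were at 5.55, 11.4 and 6.64 CPM in members against 2.54, 2.88 and 4.13 CPM in the other cells, and tuft cell genes at 5.55, 13.3 and 9.41 CPM against 3.82, 7.35 and 7.13 CPM, so that both were low but higher in members in each library. Their part in the results was not tested. No gene of these 5 lists reached 20 CPM. Of the squamous list only Krt4 did, at 143 CPM in untreated members and 36.7 CPM in the other untreated cells, and of the M cell list only Marcksl1. Goblet genes were lower in untreated members, with 7 of 8 at least 2-fold lower and a median of −2.84. Summed, they stood at 454 CPM in these members and 3377 CPM in the other cells. Per cell the gap was far smaller, with medians of 270 and 370 CPM and 41.2% of members above the latter. At 24 h all 6 measured goblet genes were higher, 4 of them at least 2-fold. There 1 cell held 91.1% of member Muc2, 91.5% of Agr2 and 97.8% of Zg16, and without it their log2 ratios were −0.96, −2.97 and −0.37.

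Malat1 and Neat1 were higher in members, together with the mitochondrial share given above. Malat1, a nuclear-retained RNA, was at 24045, 10381 and 8089.6 CPM in members and 8212, 2702 and 4646 CPM in the other cells, with log2 ratios of 1.55, 1.94 and 0.80. Against depth-matched cells these were 0.88, 1.03 and 0.32. Neat1 had log2 ratios of 1.18, 1.5 and 0.96, and Kcnq1ot1, also nuclear, of −0.09, −0.42 and −0.32. Colonocytes by score in the untreated library had a summed 23189.5 CPM of the 3 nuclear RNAs against 25350.4 CPM in members. The part of RNA quality in the ratios above was not tested.

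Anxa1 and Mki67 varied in steps along the score of untreated cells. In the untreated library Anxa1 stood at 678 CPM in the top 4% of cells, 432 in the next 4%, 340.0 between 8 and 16%, 261 between 16 and 32%, 206 between 32 and 64% and 123 in the rest. Cldn4 was concentrated further up, at 307, 97.1, 103, 69.9, 33.9 and 22.2 CPM over the same ranks. Mki67 ran the other way, from 102 CPM in the top 4% to 541 CPM in the lowest ranks. Anxa1 and Mki67 thus ran in opposite order. Krt20 was not highest at the top in untreated cells, at 15.7 CPM in the top 4%, 51.3 in the next and 47.5 between 8 and 16%, whereas at 24 h the same ranks held 243, 44.5 and 163 CPM, in no order.

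**Figure D4:**
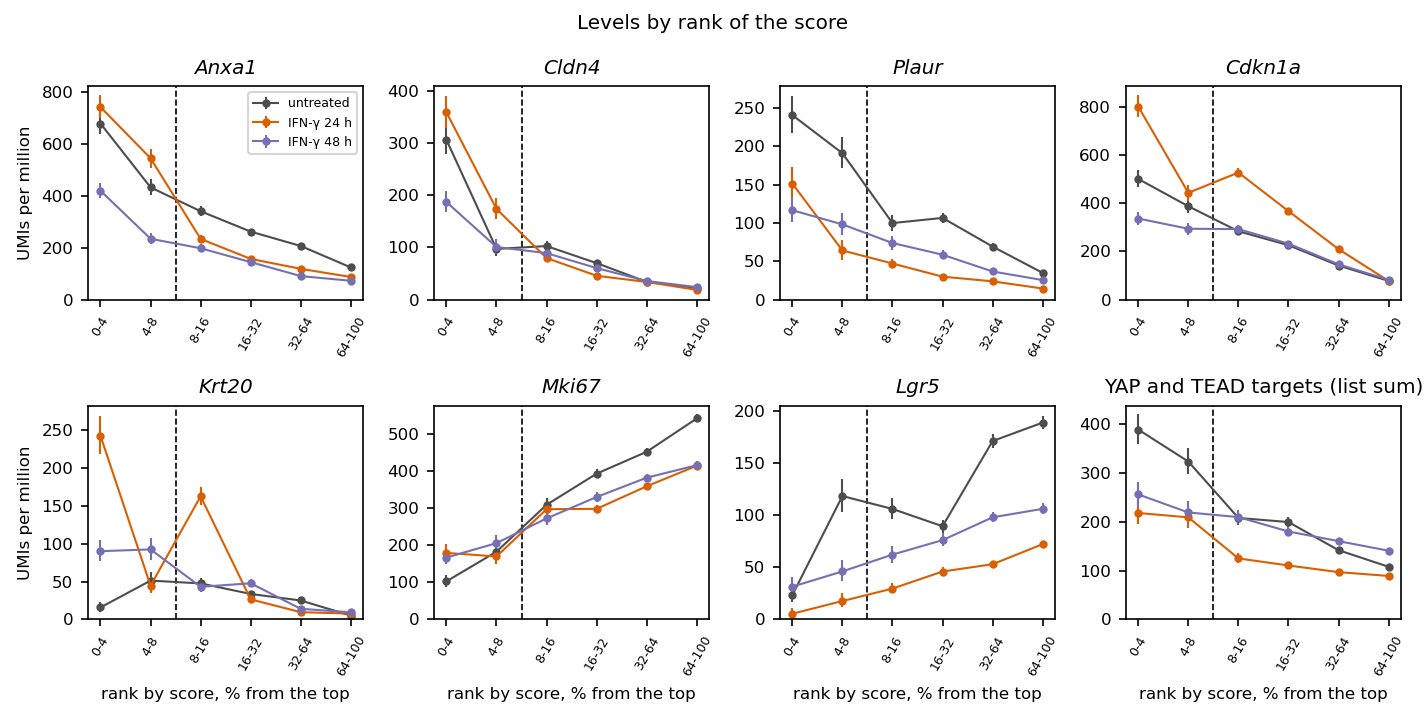
Level in CPM (y axis, linear from 0) of 7 genes and of the summed YAP and TEAD list by rank of the score (x axis, percent of cells from the top), with exact Poisson 95% intervals and a dashed line at the 8% that bounds the members. Anxa1, Cldn4 and Plaur are highest in the top 4% and lowest in the last ranks in each library, Mki67 is highest in the last ranks and lowest within the top 8%, and Krt20 has no single order.

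Members were not uniform. In the untreated library 44 members were led by Edn1 and 27 by Areg, ties being given to 1 gene only, with Areg last, and these differed in genes outside the score. Cldn4 was at 376 CPM in the Areg-led and 111 CPM in the Edn1-led members. Hypoxia genes summed to 2189.8 and 696 CPM, wound edge genes to 1336 and 853 CPM and ERK feedback genes to 1294 and 725 CPM. Lgr5 was at 21.5 CPM in the Areg-led and 100.4 CPM in the Edn1-led members, and Atp12a at 7.18 and 90.6 CPM. Areg-led untreated members thus held more of Cldn4 and of the hypoxia and ERK genes, and Edn1-led untreated members more Lgr5 and Atp12a. The stem list as a sum did not follow Lgr5, at 1014 CPM in the Areg-led and 986 CPM in the Edn1-led untreated members. Plaur at 248 and 201 CPM and Anxa1 at 486 and 548 CPM differed less. At 48 h 30 members were led by Edn1 and 197 by Areg, and Plaur was at 154 and 102 CPM and Krt20 at 0 and 104 CPM, the 0 resting on few cells. Cldn4 was there at 67.0 and 152 CPM and Lgr5 at 52.5 and 37.7 CPM, in the same order as in untreated members. Atp12a, at 5.83 and 54.7 CPM, had the opposite order.

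IFN-γ genes were high in treated members as in the other treated cells. The 24 h and 48 h values share the untreated library. Of 20 genes of the IFN-γ response all 20 reached 20 CPM in members, and all were at least 2-fold above untreated members at both times, where 4.23% and 4.15% of all tested genes were that much higher (280 of 6617 and 282 of 6800) and 9.05% and 5.68% lower. In the other cells 1.94% and 2.70% were higher and 7.02% and 3.82% lower. Summed, the list was at 128 CPM in untreated members, 9732 at 24 h and 11287 at 48 h, against 131, 7164 and 9583 CPM in the other cells. Ubd, a ubiquitin-like modifier, was at 1041 and 1363 CPM in treated members and 215 and 666 CPM in the other treated cells, and Ido1, which degrades tryptophan, at 497 and 425 against 193 and 211 CPM. Members thus held at least as much of the summed response as the other treated cells, and more of these 2 genes. Gene by gene, 14 of the 20 stood above and 6 below the other cells at 24 h, 5 of them 2-fold or more above, and 15 and 5 at 48 h, 2 of them 2-fold or more above. Cd74, the class II invariant chain, reached 1312 and 2536 CPM in members from 1 UMI in untreated members, with a log2 ratio of 12.13 (95% CI 9.65 to 17.44) at 24 h. Cxcl9, a T cell chemokine, and Psmb8, an immunoproteasome subunit, also had 1 UMI in untreated members, and reached 600.3 and 663 CPM and 506 and 469 CPM. Iigp1 and Gbp2, GTPases of cell-autonomous defence, had none there, and were at least 10.17 and 10.68 higher on the log2 scale at 24 h, taking 3 counts over the untreated members as a floor.

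Scaling matters for the rest of the comparison with the untreated library. At 24 h, TMM factors raised the log2 ratios by 0.23 in members and 0.46 in the other cells. At 48 h they raised them by 0.08 and 0.18. The split of genes past 2-fold in members at 24 h went from 280 higher and 599 lower to 410 and 337, in the other cells from 129 and 467 to 465 and 154, and in the other cells at 48 h from 186 and 263 to 245 and 188. The median log2 ratio over all tested genes was −0.14 in members and −0.18 in the other cells at 24 h, and −0.02 and −0.06 at 48 h.

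Several genes of the members were lower after IFN-γ by more than these shifts. Edn1 in members had a log2 ratio to untreated members of −2.45 (95% CI −2.58 to −2.31) at 24 h and −2.10 (95% CI −2.21 to −1.98) at 48 h, and in the other cells of −3.83 (95% CI −3.96 to −3.70) and −2.48 (95% CI −2.58 to −2.37). Il1rn had −1.62 and −2.43 in members and −3.0 and −2.87 in the other cells, and Areg 1.68 and 0.92 in members and 1.5 and 1.81 in the other cells. Edn1 and Il1rn were thus lower and Areg higher in members and other cells alike. The choice of cells used the values of these score genes, so their ratios are descriptions and no measure of a response. Outside the score, Cldn4 had 0.44 and −0.44 in members, Anxa1 0.23 and −0.75, and Plaur −1.01 and −1.0. The wound edge list in members had a median of −0.27 at 24 h and −0.44 at 48 h against untreated members, with 1 of 9 at least 2-fold higher and 3 and 2 lower. As a list, the wound edge genes of treated members were thus not above those of untreated members. G2/M genes in members had medians of 1.09 and 0.95, with 8 and 3 of 12 at least 2-fold higher, against 0.28 and −0.09 in the other cells.

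The 5 genes lowest in treated against untreated members at both times were Cyp2c55, Pcsk5, Il18, Krt4 and Timp3. Cyp2c55, a cytochrome of colon epithelium, was at 692 CPM in untreated members, 5.19 at 24 h and 13.6 at 48 h, and at 353, 5.15 and 2.54 CPM in the other cells. Pcsk5, a proprotein convertase, went from 51.4 to 1.30 and 1.11 CPM, and Timp3, a metalloproteinase inhibitor, from 54.6 to 3.90 and 5.26 CPM. Il18, an epithelial cytokine, stood at 39.7, 2.60 and 3.05 CPM and Krt4 at 143, 12 and 3.32 CPM. All 5 were also lower in the other treated cells.

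The difference between the response of members and that of the other cells has no replicate check. Of the genes that this difference ranked highest, Mmp7 had the simplest course, at 10.2, 67.5 and 76.1 CPM in members with log2 ratios of 2.72 (95% CI 2.2 to 3.28) at 24 h and 2.90 (95% CI 2.39 to 3.45) at 48 h, against −0.20 and 0.38 in the other cells. At 24 h 1 cell held 38.0% of its member UMIs, and without that cell the log2 ratio was 2.10. Zbp1, a sensor of nucleic acids induced by interferon, had 2 UMIs in untreated members and log2 ratios of 8.34 (95% CI 6.48 to 11.39) and 8.11 (95% CI 6.25 to 11.16). Slc26a3, the chloride exchanger of the surface, was at 84.7, 32.8 and 49.0 CPM in members and 60.3, 6.0 and 7.63 CPM in the other cells, and without its richest cell at 24 h the log2 ratio to untreated members was −2.92 in place of −1.37. Agr2 and Tff3 were also among these genes, and at 24 h 1 goblet-gene-rich cell held 91.5% and 71.1% of their member UMIs. The most negative differences were those of Iigp1, Ido1, H2-Aa, H2-Ab1 and Gm50237, all at 0 in untreated members, where the ratios in members are lower bounds and the difference has no value.

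**Figure D5:**
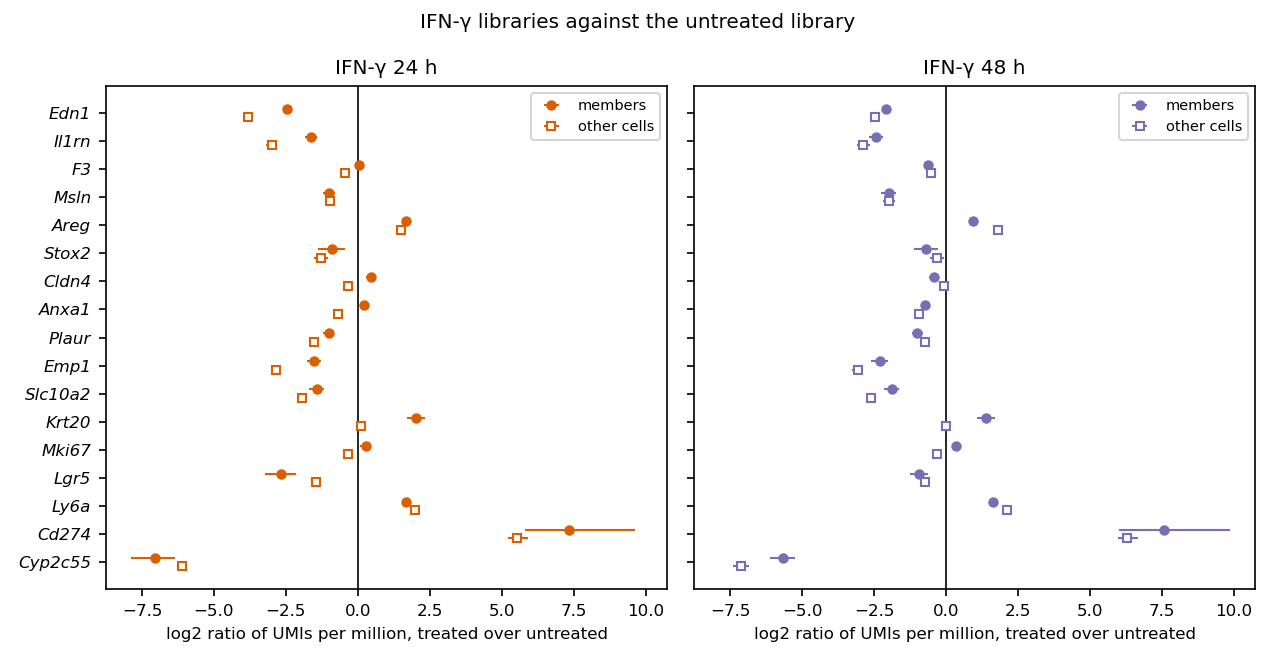
Log2 ratio of CPM, each IFN-γ library over the untreated library (x axis), for members (filled circles) and other cells (open squares), with exact conditional binomial 95% intervals for counting error, in 17 genes. Edn1, Il1rn, Emp1 and Cyp2c55 lie left of 0 and Areg, Ly6a and Cd274 right of it in members and other cells, while Krt20 lies right of 0 in members and at or near 0 in the other cells. The choice of cells used the values of Edn1, Il1rn and Areg.

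Krt20 in members had log2 ratios to untreated members of 2.01 (95% CI 1.72 to 2.32) at 24 h and 1.40 (95% CI 1.09 to 1.71) at 48 h, and in the other cells of 0.12 (95% CI 0.00 to 0.24) and 0.00 (95% CI −0.13 to 0.13). It came from few cells, and with members chosen without Areg the 48 h ratio was −0.21. In the treated libraries Krt20 also stood higher in the non-member early colonocytes, at 296 and 228 CPM, than in members.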

How the data were processed

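Single-cell libraries of 3' v3 chemistry were available for untreated organoids and for organoids after 24 h and 48 h of IFN-γ, 1 library each. The authors deposited UMI counts per gene and barcode, as whole numbers without normalization. The submitters' processing notes name Cell Ranger 6.0.1 and mm10, and the annotation release was not given in the sources used here. Names and positions came from GENCODE vM21 on GRCm38, the same assembly, which held 32158 of 32285 feature IDs, and promoters from RefSeq on GRCm38.p6. The deposited barcodes numbered 20841, 17227 and 22478, with at least 1390, 851 and 1624 UMIs each.

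Cells were filtered and ranked as the report states. Doublets were not removed. Counts were summed over members or other cells and scaled to CPM, and a gene was considered when its mean over the 2 groups reached 20 CPM. A group with no UMI was set to a floor of 3 counts. Intervals are exact (binomial or Poisson, 95%) and cover counting error only. PCR duplicates were collapsed by UMI. With 1 library per condition, and with members chosen from the cells they are set against, no test was run and no p-value is given. The precision is set by the 85, 73 and 235 members and their summed UMIs.

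The members and gene lists were chosen with earlier results of these data known. The genes named are the score genes, list members, the 10 highest and 10 lowest in members by the mean log2 ratio among genes of the same direction in all 3 libraries, the 5 most raised and 5 most lowered against untreated members at both times, and the 5 most positive and negative differences between that response and the one in other cells. Some list members are not reported here. Alternatives covered the share of cells taken, the score genes, depth and mitochondrial filters, the deepest 5% of cells, thinning to 5000 UMIs, the CPM minimum and TMM scaling (edgeR 4.0.16, R 4.3.3). Depth-matched and quieter cells, values without the richest cell, and colonocytes or stem cells by score were compared after seeing the data. Other steps used Python 3.11.15, numpy 2.4.6, pandas 2.3.3, scipy 1.17.1 and matplotlib 3.10.9, and were tested on simulated data.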

Additional observations from a re-analysis of the deposited data

Results flagged for a closer look

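Goblet cell genes went in opposite directions in members and in the other cells at 24 h against the untreated library, in the single library of each condition, and the difference was not tested. Muc2, the gel-forming mucin, had a log2 ratio of 2.35 in members and −3.0 in the other cells. Agr2, a disulfide isomerase of mucin folding, had 1.61 and −1.70, and Tff3, a trefoil peptide, 3.0 and −1.19. A single member of 80417 UMIs held 91.1% of member Muc2, 91.5% of Agr2 and 71.1% of Tff3 at 24 h. Without that cell the ratios in members were −1.10 for Muc2, −1.91 for Agr2 and 1.25 for Tff3, so that the opposite direction remained for Tff3 alone.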

How the results depend on the processing

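The number of genes past 2-fold between members and other cells moved with the share of cells taken, the depth filter, the comparator and the minimum level. The counts as reported were 577, 683 and 157 in the untreated, 24 h and 48 h libraries, and against the untreated library 879 in members and 596 in the other cells at 24 h and 668 and 449 at 48 h. With the top 4% of cells the first 3 counts were 899, 1155 and 325, and with the top 12% they were 333 at 24 h and 101 at 48 h. Thinned cells gave 87 at 48 h, a score without Areg 330 at 24 h, a filter of 2000 UMIs 297 in the untreated library and 97 at 48 h, and one of 10000 UMIs 450 at 24 h. With a minimum of 5 CPM the 7 counts were 1099, 1266, 388, 1732, 1257, 1338 and 928, with 50 CPM 262, 348, 73, 422, 289, 330 and 220, and with no minimum 3092, 3506, 2107, 3140, 5691, 2789 and 4168. Against quieter cells they were 363 in the untreated library and 86 at 48 h, and in the quieter other cells 1021 at 24 h. Of the members, 0% ranked in the top 8% by stem, S phase and G2/M genes in the untreated library and by stem genes at 24 h when the top 4% of cells were taken, and 0% by G2/M genes in thinned untreated cells.

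Some named genes turned their direction. Among ratios of at least 2-fold, with the top 4% of cells the log2 ratio of Muc2 at 24 h was −0.32 against the other cells, and against untreated members Muc2 had −0.14, Agr2 −2.01, Slc26a3 0.13 and Clu 0.29 at 24 h. Without Areg in the score Muc2 had −1.48 against the other cells at 24 h, Agr2 −1.86 against untreated members at 24 h and Krt20 −0.21 at 48 h. With the top 12%, Muc2 had 0.22 against untreated members at 48 h. Chgb against the other cells at 48 h had 2.27 with the top 12%, 2.96 in thinned cells, 2.90, 3.02, 2.84 and 2.96 without Edn1, Il1rn, F3 or Msln in the score and 2.15 at 2000 UMIs, where it had 0.92 in the untreated library. Against quieter cells Top2a had 0.34 in the untreated library and Plk1 0.089 at 48 h. Ratios under 2-fold turned under other settings too, of which those of the added comparators are given. Against quieter cells Top2a had 0.14 at 24 h and 0.14 at 48 h, Mmp7 −0.28 at 24 h, and in the untreated library Krt20 −0.50, Slc26a3 −0.66, Lypd8 −0.49, Car1 −0.10, Cyp2c55 −0.04 and B2m −0.21. Against depth-matched cells Krt20 had −0.74, Slc26a3 −0.51, Lypd8 −0.45, Hnf4a −0.06 and B2m −0.01 in the untreated library, and Mmp7 −0.46 at 24 h, where Hnf4a lay near 0. The cause was not tested. Of the other values of single genes, 6830 stayed within the counting interval of the reported value and 3181 did not, and of list medians 767 stayed close to the reported one and 29 moved further. No paired analysis was possible because there was 1 library per condition. The members' summed UMIs limit what can be said of genes under 20 CPM.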

Other observations

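Several genes of the fixed lists lay under the 20 CPM minimum, or came from few cells, and yet stood far above the other cells. Plat, tissue plasminogen activator, was at 15.2, 4.55 and 3.60 CPM in members and 1.81, 0.235 and 0.275 CPM in the other cells, in 14, 3 and 7 members, with log2 ratios of 3.07 (95% CI 2.54 to 3.58) without IFN-γ, 4.27 (95% CI 3.13 to 5.40) after 24 h and 3.71 (95% CI 2.46 to 4.97) after 48 h. Procr, the receptor of activated protein C, was at 3.79, 1.30 and 2.21 CPM in members and 0.151, 0.368 and 0.229 CPM in the other cells, in 5, 4 and 7 members. Ccn2, a matrix protein and YAP target, was at 46.7, 20.1 and 5.26 CPM in members and 7.33, 0.956 and 1.79 CPM in the other cells, from 19, 9 and 15 members. Basp1, a membrane protein of the regenerative list, came from only 3, 4 and 5 members, 1 of which held 65.6% of its UMIs at 24 h, and was at 4.09, 19.8 and 7.48 CPM in members against 0.431, 0.0882 and 0.115 CPM in the other cells. These genes were picked after their values were seen.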
